A study of Mus musculus with 10 samples.

Results

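The TNF superfamily genes of mouse dorsal root ganglia (DRG) were taken as the protein-coding genes whose symbol starts with Tnfsf or Tnfrsf, together with Tnf, Lta, Ltb, Ltbr, Fas, Fasl, Cd40 and Cd27. This rule found 40 genes, 16 ligands and 24 receptors, among 54309 genes quantified. RNA-seq was available for DRG of female and male C57BL/6 mice of 6 to 8 weeks. The ganglia were taken 24 h after the left sciatic nerve was cut through at mid-thigh (axotomy) or only exposed (sham), both under isoflurane. Of the 10 libraries, each sex gave 2 after sham and 3 after axotomy. Each held RNA of the ipsilateral L4 and L5 ganglia of 2 mice pooled before sequencing, so a library averages over 2 mice, and the sham mice form a separate cohort whose skin and muscle were also opened.

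TNF superfamily ligands are trimeric proteins, mostly anchored in the membrane of immune and tissue cells, from which proteases can release some of them. Some of their receptors carry an intracellular death domain, as TNFR1 (Tnfrsf1a) and Fas do, and can signal cell death through FADD and caspase 8. Others, such as TNFR2 (Tnfrsf1b) and Fn14 (Tnfrsf12a), bind TRAF adaptors and switch on NF-kB and MAP kinases. In sensory ganglia the family is best known for TNF, which sensitizes nociceptors after nerve injury, and the TWEAK receptor Fn14 is known to be induced in injured tissues.

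The upstream sequences of the 3 members called in both sexes are shown because the data bear most on these genes. Each is the 250 bases before the annotated start, 5′ to 3′ on the strand of the gene, from RefSeq (GRCm38.p6). The capitals in Tnfrsf8 mark a match to the NF-kB consensus and, nearer to the start, one to the AP-1 motif TGANTCA.
Tnfrsf8 (chr4:145315165-145315414, minus strand): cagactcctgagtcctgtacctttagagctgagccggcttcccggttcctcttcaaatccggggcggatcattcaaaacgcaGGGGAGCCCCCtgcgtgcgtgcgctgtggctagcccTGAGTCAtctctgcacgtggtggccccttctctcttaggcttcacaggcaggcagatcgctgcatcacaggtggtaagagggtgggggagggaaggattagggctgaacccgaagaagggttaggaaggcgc
Tnfrsf12a (chr17:23677450-23677699, minus strand): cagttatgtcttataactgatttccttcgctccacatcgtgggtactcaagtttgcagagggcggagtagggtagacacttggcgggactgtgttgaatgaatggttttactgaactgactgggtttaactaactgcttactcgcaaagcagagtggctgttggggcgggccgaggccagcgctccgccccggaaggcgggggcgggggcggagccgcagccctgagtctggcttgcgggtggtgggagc
Tnfrsf1b (chr4:145246871-145247120, minus strand): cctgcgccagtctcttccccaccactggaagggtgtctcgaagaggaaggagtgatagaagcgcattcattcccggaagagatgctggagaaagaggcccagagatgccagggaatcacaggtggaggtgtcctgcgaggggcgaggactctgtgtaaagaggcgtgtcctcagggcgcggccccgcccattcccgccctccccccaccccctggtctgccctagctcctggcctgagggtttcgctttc
The AP-1 match of Tnfrsf8 lies 126 to 132 bases before its start, and 2 overlapping NF-kB matches lie 158 to 168 bases before it. Neither motif is in the windows of Tnfrsf12a and Tnfrsf1b. Searched on both strands, 6.75% of 32851 promoter windows of this length held the AP-1 motif and 7.25% the NF-kB consensus. The 32 members matched to a promoter had 36 windows. Of these windows, 6 held the AP-1 motif (Fas, Tnfrsf8, Tnfrsf9, Tnfsf13, Tnfsf13b and Tnfsf14) and 4 held the NF-kB consensus (Ltb, Tnfrsf25, Tnfrsf8 and Tnfrsf9). A match describes the letters in the window and is not evidence of binding.

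Receptors made up most of the family in the sham ganglion. Over the 4 sham libraries the 24 receptors summed to 225 TPM (transcript abundance scaled for transcript length and library size) and the 16 ligands to 30.5 TPM. Tnfrsf21, the gene of the death-domain receptor DR6, stood highest at 126 ± 12.5 TPM (SD, n = 4) and held 49.2% of the summed level. Tnfrsf1a followed at 28.7 ± 0.79 TPM, Tnfrsf12a at 20.5 ± 2.1 TPM, the TWEAK gene Tnfsf12 at 15.9 ± 1.7 TPM and the lymphotoxin beta receptor gene Ltbr at 13.0 ± 0.47 TPM. Next came Tnfrsf11a, which encodes RANK, at 9.69 ± 1.0 TPM, then Tnfsfm13 at 6.41 ± 0.32 TPM and Tnfrsf1b at 3.56 ± 0.38 TPM. The sham ranges of these 8 genes did not overlap. From Tnfrsf1b down to Tnfrsf19 (2.12 ± 0.25 TPM), each gene's range overlapped that of the next, so the order within that stretch is not resolved.

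The ligands other than Tnfsf12 and its neighbours were scarce. Of the 40 members, 20 stood under 1 TPM in sham, 11 of them ligands. Tnf itself was at 0.062 ± 0.05 TPM and had 64 counts over all 10 libraries. Tnfsf13, the gene of the B-cell factor APRIL, stood at 3.30 ± 0.30 TPM, the BAFF gene Tnfsf13b at 1.73 ± 0.14 TPM and the TRAIL gene Tnfsf10 at 1.54 ± 0.23 TPM. Tnfsf4, which encodes the OX40 ligand, had no count in any sham library and 5 counts in all, and 3 counts, the limit a count of 0 allows, correspond to 0.0333 to 0.0543 CPM in these libraries.

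**Figure D1:**
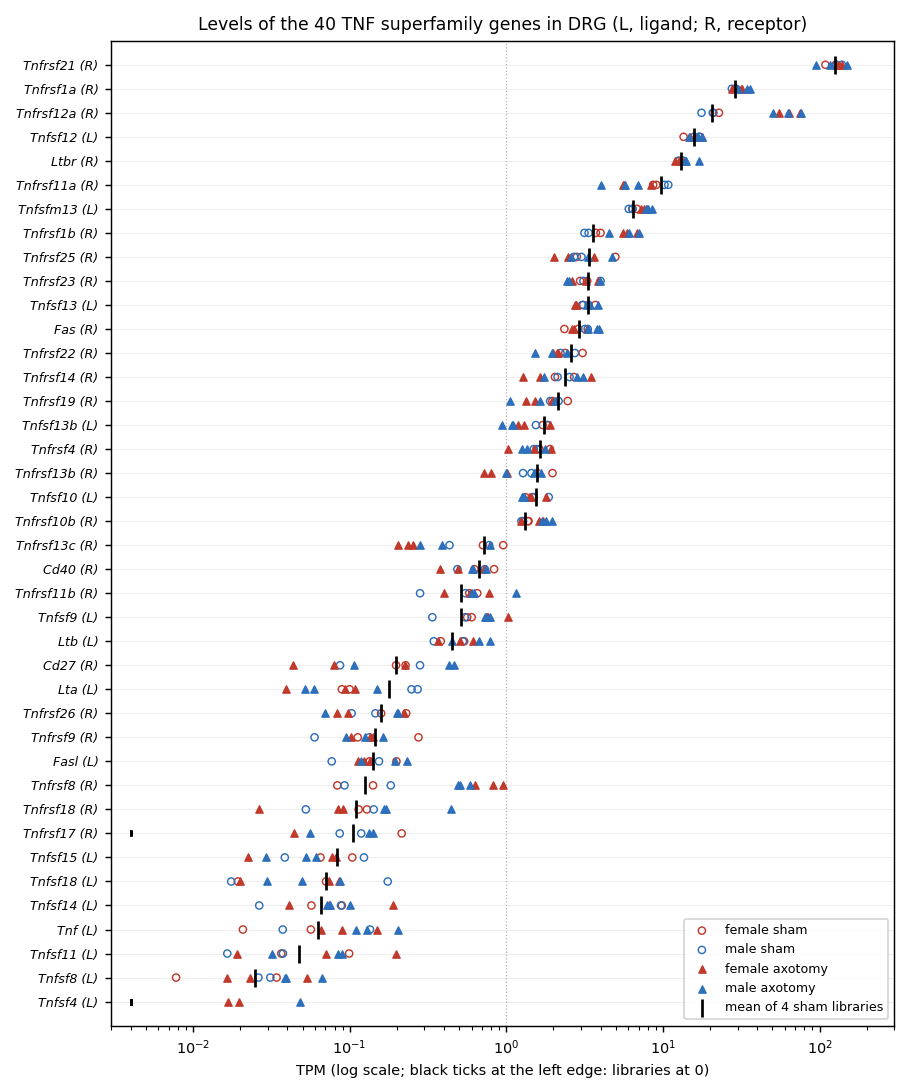
Level of each of the 40 members in every library, in TPM on a log axis, ordered by the mean of the 4 sham libraries (black bar). Tnfrsf21 lies highest at 126 TPM in sham, and Tnfrsf12a and Tnfrsf8 have all 6 axotomy libraries to the right of all 4 sham libraries.

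Several members share sequence or position, which limits how their reads can be told apart. Tnfsfm13 is a read-through of Tnfsf12 into Tnfsf13 and shares exons with both, so the split of reads between these 3 ligand genes is an estimate. Summed over the 3, their level was 25.3 ± 3.3 TPM in female sham (n = 2), 26.6 ± 1.9 TPM in female axotomy (n = 3), 25.8 ± 0.38 TPM in male sham (n = 2) and 28.04 ± 1.4 TPM in male axotomy (n = 3). The decoy receptor genes Tnfrsf22, Tnfrsf23 and Tnfrsf26 lie next to each other on chromosome 7 and are close relatives, so their values are uncertain as well. Protein-coding transcripts carried 52.3% of the counts of Tnfrsf23, 61.1% of those of Tnfrsf4 and 69.5% of those of Tnfrsf25, with the remainder on transcripts annotated as non-coding or decayed. For the 3 genes called in both sexes this share was 94.9% (Tnfrsf8), 96.3% (Tnfrsf12a) and 100.0% (Tnfrsf1b).

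By position the family is clustered. In Gencode M21 on GRCm38, a build older than the GRCm39 of the quantification, chromosome 4 held 9 members and chromosome 17 held 7. Ltb (chr17:35194439-35196320), Tnf (chr17:35199381-35202007) and Lta (chr17:35203165-35205351) are adjacent genes. Tnfrsf1b (chr4:145213463-145246870) and Tnfrsf8 (chr4:145267137-145315164) are neighbours with no protein-coding gene between them, and a gap of 20266 bases. Tnfrsf12a lies apart at chr17:23675445-23677468.

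Library sizes ran from 55258476 to 90111671 assigned read pairs. The 8 sensory neuron markers summed to 6041 to 7693 CPM (normalized counts scaled to a common library size) in the 10 libraries, and none of the 8 was at 0. They summed to 7071 to 7236 CPM in female sham and 6795 to 7109 CPM in female axotomy, where 3 of 8 fell, and to 7449 to 7693 CPM in male sham and 6041 to 7286 CPM in male axotomy, where 4 fell and 1 rose. The part of these shifts in the results for the members was not tested. Of the 40 members, 31 had enough counts to be tested, 10 ligands and 21 receptors. The other 9 (Tnf, Tnfsf4, Tnfsf8, Tnfsf11, Tnfsf14, Tnfsf18, Tnfrsf9, Tnfrsf17 and Tnfrsf18) had 5 to 81 counts over all libraries. A gene was called at an adjusted p (padj, edgeR's quasi-likelihood test, Benjamini-Hochberg over 20836 genes) under 0.1.

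In females, axotomy raised 3 members (Tnfrsf8, Tnfrsf12a and Tnfrsf1b) and lowered 2 (Tnfrsf13c and Tnfrsf13b), all receptors. These 5 of 31 are 16.1% of the members tested, beside 20.1% of all genes called in that comparison. In males, 9 members rose (Tnfrsf12a, Tnfrsf8, Tnfrsf1b, Tnfsfm13, Tnfrsf1a, Tnfrsf10b, Tnfsf9, Ltbr and Tnfrsf11b) and 3 fell (Tnfrsf11a, Lta and Tnfsf13b). Of these, Lta was tested only because its counts in male sham passed the filter, which favours a fall. These 12 of 31 are 38.7%, beside 41.9% of all genes, so the share of the family lay close to that of all genes in both sexes. At an unadjusted p under 0.05 there were 8 members in females, beside 29.1% of all genes, and 12 in males, beside 43.8%. By direction, 3 of 31 members were higher and 2 lower in females, beside 10.4% and 9.74% of all genes. In males 9 of 31 were higher and 3 lower, beside 21.8% and 20.1% of all genes. The median log2 fold change of the 31 members was −0.10 in females and 0.33 in males, beside 0.00 and 0.03 over all genes tested. The 3 members called in both sexes went the same way, up, as did 7.84% of all genes, and no member fell in both, beside 7.61% of all genes.

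**Figure D2:**
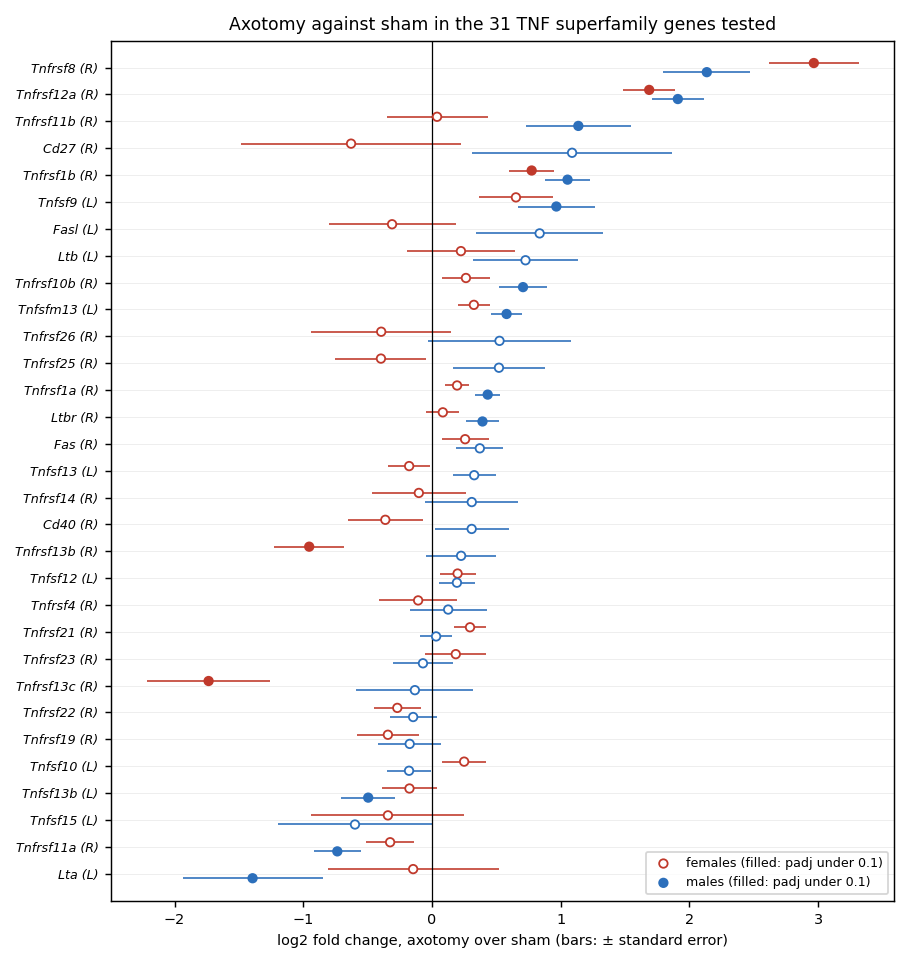
Log2 fold change of axotomy over sham with its standard error for the 31 members tested, in females (red) and males (blue), with filled points at padj under 0.1. Tnfrsf8 and Tnfrsf12a lie farthest to the right in both sexes, Tnfrsf13c and Tnfrsf13b are called lower in females, and Lta and Tnfrsf11a lie lowest in males.

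Tnfrsf12a, the receptor of TWEAK, was the strongest called member by p in males. It stood at 9.49 and 10.2 CPM in female sham and at 38.0, 31.2 and 26.1 CPM in female axotomy. In males it stood at 7.84 and 9.37 CPM in sham and at 40.6, 29.5 and 26.9 CPM after axotomy. Every axotomy library of either sex was above every sham library. The rise was 3.22-fold in females (log2 fold change 1.69, SE 0.20, padj = 0.0012) and 3.76-fold in males (1.91, SE 0.20, padj = 0.000441). Its level went from 20.5 to 63.8 TPM, which placed it above Tnfrsf1a after axotomy. A bulk sample cannot tell a change in RNA per cell from a change in the number of cells of a type, here and for every gene below.

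The ligand of this receptor was not called. Tnfsf12 stood at 10.4 and 8.13 CPM in female sham, and at 12.1, 10.4 and 9.33 CPM in female axotomy. In males it stood at 9.40 and 10.2 CPM in sham and 10.5, 11.2 and 12.0 CPM after axotomy. The female groups overlapped, and the male axotomy libraries lay just above the male sham libraries. Its log2 fold change was 0.20 for females (SE 0.14, padj = 0.377) and 0.19 for males (SE 0.14, padj = 0.312).

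Tnfrsf8, the gene of CD30, a receptor of activated lymphocytes that binds TRAFs, had the largest fold change of the members tested, from a low level. It stood at 0.173 and 0.290 CPM in female sham and 2.22, 1.84 and 1.37 CPM in female axotomy. Male sham libraries held 0.189 and 0.377 CPM and male axotomy libraries 1.23, 1.27 and 1.21 CPM. The groups did not overlap in either sex, and the 3 female axotomy libraries lay above the 3 male ones. The rise was 7.82-fold in females (log2 fold change 2.97, SE 0.35, padj = 0.00113) and 4.39-fold in males (2.14, SE 0.34, padj = 0.0017). These values rest on 12 to 23 counts per sham library and 75 to 136 per axotomy library. Its ligand gene Tnfsf8 had 45 counts over all libraries and was not tested. The 8 T- and NK-cell markers, none at 0, summed to 1.797 to 1.96 CPM in female sham and 2.48 to 3.26 CPM in female axotomy. In males they summed to 1.47 to 1.62 CPM in sham and 3.04 to 4.20 CPM after axotomy, and of 7 tested, 1 rose in females and 2 in males. Their part in the rise of Tnfrsf8 was not tested.

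Tnfrsf1b, which encodes TNFR2, rose in both sexes. It stood at 8.07 and 8.57 CPM in female sham and at 16.5, 13.8 and 12.4 CPM in female axotomy. In males it stood at 6.70 and 7.21 CPM in sham and 17.9, 13.8 and 11.6 CPM after axotomy. Every axotomy library was above every sham library. The rise was 1.71-fold in females (log2 fold change 0.77, SE 0.18, padj = 0.0183) and 2.08-fold in males (1.05, SE 0.18, padj = 0.00211). In females the call was lost without female sham 1 (padj = 0.124) or without female sham 2 (padj = 0.123).

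TNFR2 is carried by myeloid cells among others, and macrophage markers moved in the same libraries. The 9 markers (Adgre1, Csf1r, Cd68, C1qa, C1qb, C1qc, Cx3cr1, Mrc1 and Aif1), none of them at 0, summed to 67.5 to 80.7 CPM in female sham and 83.3 to 112 CPM in female axotomy. In males they summed to 54.3 to 58.0 CPM in sham and 107 to 195 CPM after axotomy. Of the 9, 1 rose in females and all 9 rose in males. Their part in the results for the members was not tested.

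The other TNF receptor gene, Tnfrsf1a, rose in males. It stood at 31.7 and 30.2 CPM in male sham and at 44.3, 41.8 and 39.4 CPM in male axotomy, without overlap. This is 1.35-fold (log2 fold change 0.43, SE 0.10, padj = 0.00711). Female sham libraries held 31.8 and 31.9 CPM and female axotomy libraries 39.7, 37.8 and 31.9 CPM, and the lowest of these was level with sham. The female log2 fold change was 0.20 (SE 0.10, padj = 0.206). It was called with a replicate block (padj = 0.0463) and without female axotomy 3 (padj = 0.0522).

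The ligand TNF was too scarce to follow. Its gene Tnf had 3 and 1 counts in female sham, 9, 3 and 5 in female axotomy, 8 and 2 in male sham and 9, 17 and 7 in male axotomy. The counts of sham and axotomy libraries overlapped in both sexes. Without the filter on low counts its log2 fold change was 1.46 for females (SE 0.86, padj = 0.411) and 0.94 for males (SE 0.70, padj = 0.455), so no change was detectable at this depth.

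Among the death-domain receptors, Tnfrsf10b, the receptor of TRAIL, rose in males. It stood at 2.00 and 1.98 CPM in male sham and 3.63, 2.99 and 3.15 CPM in male axotomy, with no overlap. The change was 1.63-fold (log2 fold change 0.71, SE 0.19, padj = 0.0154). In females it stood at 2.18 and 2.20 CPM in sham and 2.91, 2.94 and 2.04 CPM after axotomy, with 1 axotomy library under both sham libraries (log2 fold change 0.26, SE 0.19, padj = 0.384). The ligand gene Tnfsf10 stood at 3.05 to 4.48 CPM in females and 3.03 to 4.24 CPM in males, with log2 fold changes of 0.25 (SE 0.17, padj = 0.371) and −0.18 (SE 0.17, padj = 0.454).

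Fas, which triggers apoptosis when bound by Fas ligand, was not called, but its value depended on transcript lengths. It stood at 1.38 and 1.68 CPM in female sham and at 2.16, 1.68 and 1.66 CPM in female axotomy. In males it stood at 1.92 and 1.86 CPM in sham and at 2.64, 2.40 and 2.30 CPM after axotomy, above both sham libraries. The log2 fold change was 0.26 for females (SE 0.18, padj = 0.386) and 0.37 for males (SE 0.18, padj = 0.141). Without the correction for effective transcript length, the male value was 0.71 (SE 0.19) and was called (padj = 0.0123). The full-length transcript Fas-201 held 82.0% of Fas counts in male sham and 90.5% in male axotomy, and the shorter Fas-202 held 8.27% and 3.06%. Fasl had 100 counts in all, and its log2 fold change was −0.31 for females (SE 0.49, padj = 0.725) and 0.84 for males (SE 0.50, padj = 0.22).

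The most abundant member, Tnfrsf21, was not called in either sex with all libraries in 1 fit. It stood at 197 and 227 CPM in female sham and 259, 271 and 250 CPM in female axotomy. In males it stood at 228 and 250 CPM in sham and at 246, 283 and 203 CPM after axotomy. The female groups did not overlap (log2 fold change 0.30, SE 0.12, padj = 0.142) and the male groups did (0.03, SE 0.12, padj = 0.864). The female value was called when the female libraries were fitted alone (padj = 0.027), with a replicate block (padj = 0.0224), without male axotomy 2 (padj = 0.0518) and without male axotomy 3 (padj = 0.0487). The fifth death-domain receptor gene, Tnfrsf25, had log2 fold changes of −0.40 for females (SE 0.35, padj = 0.498) and 0.52 for males (SE 0.36, padj = 0.293). Its ligand gene Tnfsf15 had 136 counts in all, with −0.34 (SE 0.59, padj = 0.75) and −0.60 (SE 0.60, padj = 0.475).

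Among receptors that signal through TRAFs in tissue cells, Tnfrsf11a fell in males. RANK, its product, is the receptor of RANKL, best known in bone. It stood at 25 and 23.9 CPM in male sham and at 11.1, 17.02 and 15.98 CPM in male axotomy, with all 3 below sham. The level fell to 0.601 of sham (log2 fold change −0.74, SE 0.18, padj = 0.0121). Female sham libraries held 20.4 and 21.2 CPM and female axotomy libraries 14.7, 14.3 and 20.6 CPM, so 1 female axotomy library lay within the sham range (log2 fold change −0.33, SE 0.19, padj = 0.277). The female value was called lower with a replicate block (padj = 0.0785) and without female axotomy 3 (padj = 0.0751). The RANKL gene Tnfsf11 had 43 counts in all and was not tested.

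Osteoprotegerin, the soluble decoy that binds RANKL, is encoded by Tnfrsf11b, which rose in males. It stood at 0.360 and 0.708 CPM in male sham and at 0.943, 0.820 and 1.77 CPM in male axotomy. The groups did not overlap, and the upper male axotomy library was well above the other two. The change was 2.20-fold (log2 fold change 1.14, SE 0.41, padj = 0.0514), and the call was lost without male sham 1 (padj = 0.338) or without male axotomy 3 (padj = 0.152). In females the values were 0.848 and 0.747 CPM in sham and 0.586, 0.829 and 1.04 CPM after axotomy, with a log2 fold change of 0.04 (SE 0.39, padj = 0.961).

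Ltbr, the receptor of membrane lymphotoxin and LIGHT, rose slightly in males. It stood at 14.3 and 15.6 CPM in male sham and 23.0, 16.98 and 18.9 CPM in male axotomy, above both sham libraries. The change was 1.31-fold (log2 fold change 0.39, SE 0.13, padj = 0.037). The call was lost without male sham 1 (padj = 0.22), male sham 2 (padj = 0.101) or male axotomy 1 (padj = 0.106). Female libraries overlapped at 14.8 and 15.3 CPM in sham and 17.4, 16 and 14.5 CPM after axotomy (log2 fold change 0.08, SE 0.13, padj = 0.71). Fibroblasts carry Ltbr and osteoprotegerin among others, and the 5 fibroblast markers (Col1a1, Col1a2, Pdgfra, Dcn and Lum), none at 0, summed to 589 to 623 CPM in male sham and 840 to 1620 CPM in male axotomy, where all 5 rose. In females they summed to 769 to 802 CPM in sham and 628 to 716 CPM after axotomy, and 2 of 5 fell. Their part in these results was not tested.

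The lymphotoxin genes themselves were near the limit of detection. Lta had 12 counts in each male sham library and 3, 4 and 8 in the male axotomy libraries, that is 0.176 and 0.195 CPM against 0.0442, 0.0447 and 0.126 CPM. All 3 axotomy libraries were below sham, and the fall (log2 fold change −1.39, SE 0.54, padj = 0.0711) was not called by DESeq2 (padj = 0.206) nor in 6 of the 10 fits that left out 1 library (padj = 0.119 to 0.272). Lta passed the filter on low counts only through the male sham libraries, the group in which it was high. In females it stood at 0.0720 and 0.0639 CPM in sham and at 0.0321, 0.0723 and 0.0806 CPM after axotomy. Ltb had 192 counts in all, with log2 fold changes of 0.23 for females (SE 0.42, padj = 0.767) and 0.73 for males (SE 0.41, padj = 0.197), and both sexes' groups overlapped.

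Of the 3 receptor genes of APRIL and BAFF, 2 were tested, and both fell in females. Tnfrsf13c, which encodes the BAFF receptor of B cells, stood at 0.747 and 0.543 CPM in female sham and at 0.223, 0.199 and 0.166 CPM in female axotomy. Tnfrsf13b, which encodes TACI, stood at 1.72 and 2.14 CPM in female sham and 0.889, 1.20 and 0.907 CPM in female axotomy. In both genes every female axotomy library was below both sham libraries. The level fell to 0.300 of sham for Tnfrsf13c (log2 fold change −1.74, SE 0.48, padj = 0.0399) and to 0.516 for Tnfrsf13b (−0.95, SE 0.27, padj = 0.0438). Each call was lost in 3 of the 10 fits that left out 1 library. For Tnfrsf13c these were the fits without female sham 1 (padj = 0.197), female sham 2 (padj = 0.133) and female axotomy 2 (padj = 0.106), and for Tnfrsf13b those without female sham 1 (padj = 0.112), female sham 2 (padj = 0.277) and female axotomy 1 (padj = 0.136).

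In males these 2 receptor genes scattered. Tnfrsf13c stood at 0.333 and 0.604 CPM in male sham and 0.359, 0.231 and 0.730 CPM after axotomy. Tnfrsf13b stood at 1.37 and 1.57 CPM in male sham and 1.93, 1.14 and 2.14 CPM after axotomy. Male axotomy 2 was the lowest of its group for both, and the groups overlapped. The log2 fold changes were −0.13 (SE 0.45, padj = 0.848) and 0.23 (SE 0.27, padj = 0.556). The third receptor gene of this kind, Tnfrsf17, had 21 counts in all. The 4 B-cell markers used (Cd79a, Cd79b, Ms4a1 and Ighm), none at 0, summed to 34.98 to 35.3 CPM in female sham and 29.7 to 30.6 CPM in female axotomy, where 1 of 4 fell. In males they summed to 31.1 to 33.4 CPM in sham and 38.1 to 43.05 CPM after axotomy, where 3 of 4 rose. Their part in the result was not tested.

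Of the ligands of these receptors, Tnfsf13b and Tnfsfm13 were called, both in males. Tnfsf13b stood at 2.49 and 2.98 CPM in male sham and 2.14, 1.61 and 2.10 CPM in male axotomy, all 3 below sham. The fall (log2 fold change −0.50, SE 0.21, padj = 0.0946) was close to the threshold and was called in 2 of the 10 fits that left out 1 library, with padj = 0.106 to 0.383 in the other 8. Female libraries overlapped at 3.03 and 2.78 CPM in sham and 2.40, 2.09 and 3.23 CPM after axotomy. The APRIL gene Tnfsf13 had log2 fold changes of −0.18 for females (SE 0.17, padj = 0.521) and 0.33 for males (SE 0.17, padj = 0.152).

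The read-through Tnfsfm13, whose product TWE-PRIL joins the membrane part of TWEAK to APRIL, rose in males. It stood at 6.23 and 5.96 CPM in male sham and at 9.85, 8.13 and 9.38 CPM in male axotomy, and at 6.75 and 6.26 CPM in female sham and 8.85, 8.12 and 7.49 CPM in female axotomy. Every axotomy library was above every sham library of either sex. The change was 1.49-fold in males (log2 fold change 0.58, SE 0.12, padj = 0.0055) and 1.25-fold in females (0.33, SE 0.12, padj = 0.104). The female value was called by DESeq2 (padj = 0.067), with a replicate block (padj = 0.0827) and with the female libraries alone (padj = 0.0769). It was also called in 4 of the 10 fits that left out 1 library. It was not called with the other size factors, the other filters or no length offset (padj = 0.1 to 0.186). How the shared exons bear on this change was not tested.

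Tnfsf9, the gene of the 4-1BB ligand, which costimulates T cells, rose in males. It stood at 0.190 and 0.311 CPM in male sham and 0.531, 0.445 and 0.490 CPM in male axotomy, without overlap. The change was 1.95-fold (log2 fold change 0.97, SE 0.30, padj = 0.0304) and lost its call without male sham 1 (padj = 0.243). Female sham libraries held 0.344 and 0.320 CPM and female axotomy libraries 0.492, 0.466 and 0.610 CPM, again without overlap (log2 fold change 0.65, SE 0.29, padj = 0.165). Its receptor gene Tnfrsf9 had 81 counts in all and was not tested.

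**Figure D3:**
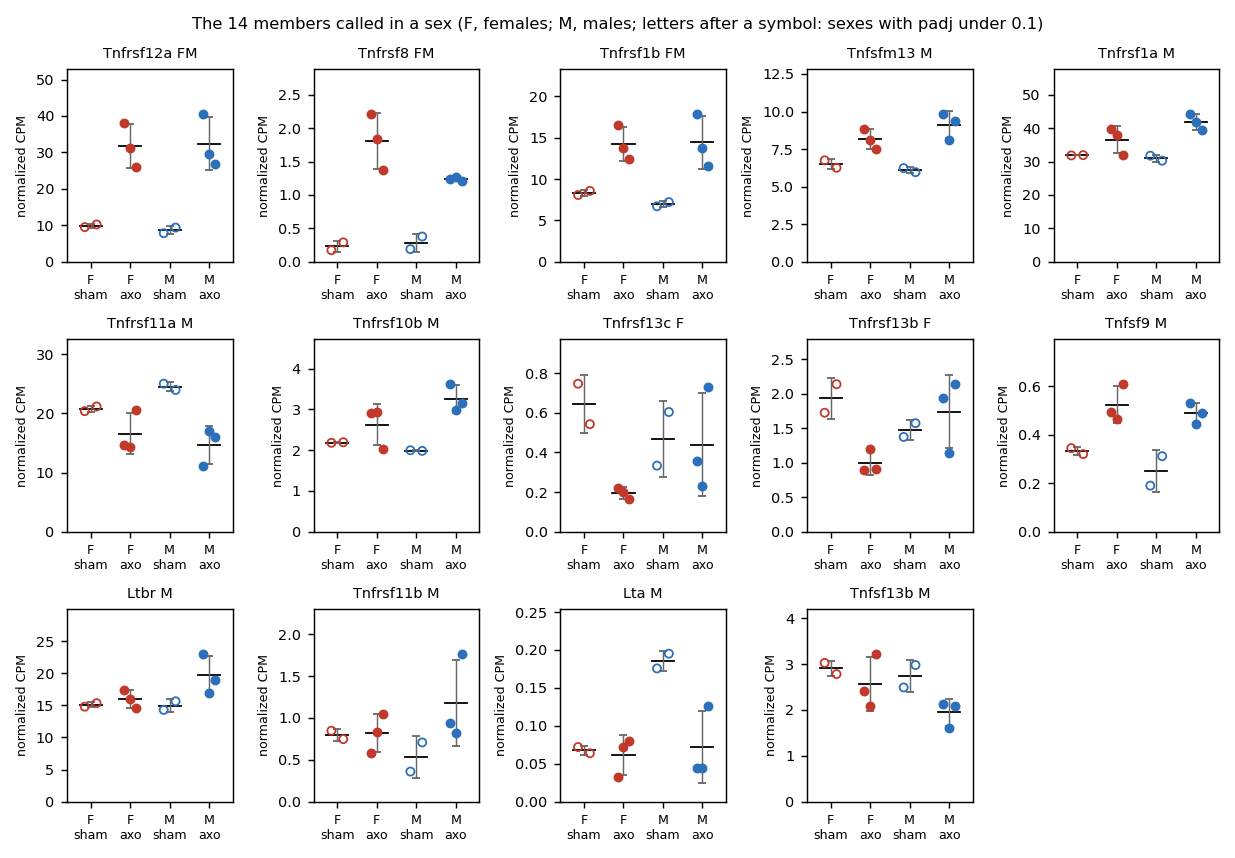
Normalized CPM in every library for the 14 members called in at least 1 sex, on axes that start at 0 (open points sham, filled points axotomy, black line the group mean, grey bar ± SD). Tnfrsf12a, Tnfrsf8 and Tnfrsf1b separate in both sexes, while Tnfrsf13c and Tnfrsf13b separate in females and overlap in males.

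The 17 remaining members tested were called in no sex. Of the costimulatory receptors of lymphocytes, Cd40 stood at 0.889 and 1.18 CPM in female sham and 0.601, 0.763 and 1.06 CPM in female axotomy, with 1.02 and 0.695 CPM in male sham and 1.25, 0.901 and 1.03 CPM in male axotomy. Its groups overlapped in both sexes, with log2 fold changes of −0.36 (SE 0.29, padj = 0.445) and 0.31 (SE 0.29, padj = 0.445). Cd27, the receptor of CD70, had 82 counts in all. Tnfrsf4 and Tnfrsf14, which encode OX40 and HVEM, had log2 fold changes of −0.11 and −0.10 in females and of 0.13 and 0.31 in males. Tnfrsf19, a receptor of the developing nervous system also called TROY, and the decoy receptor genes Tnfrsf22, Tnfrsf23 and Tnfrsf26 had log2 fold changes of −0.39 to 0.18 in females and −0.17 to 0.52 in males.

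The responses of the sexes were compared directly as the male minus the female log2 fold change. In this test edgeR called 0 of 31 members, beside 0.0192% of all genes, and DESeq2 called 0, beside 2.57%. In edgeR 2 members had an unadjusted p under 0.05, beside 11.4% of all genes. These were Tnfrsf13b (difference 1.18, SE 0.39, padj = 0.303) and Tnfrsf13c (1.60, SE 0.67, padj = 0.403). The members called in males and not in females are therefore not shown to respond differently. For Tnfrsf12a the difference was 0.22 (SE 0.27), for Tnfrsf1b 0.28 (SE 0.24) and for Tnfrsf8 −0.83 (SE 0.48). Male axotomy 2 decided this count. Without it, 2 members were called, Tnfrsf13b (difference 1.42, padj = 0.0359) and Tnfrsf13c (1.94, padj = 0.0865), beside 5.71% of all genes called higher.

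Sham males and sham females differed in 0 of 31 members by edgeR, beside 0.0432% of all genes (0.0288% higher in males and 0.0144% lower). DESeq2 also called 0, beside 0.154% of all genes. In edgeR 1 member had an unadjusted p under 0.05, beside 3.22% of all genes. This was Lta, which was tested only because its male sham libraries passed the filter, so its difference is given no weight. After axotomy, males and females differed in 0 of 31 by edgeR, beside 1.52% of all genes (1.16% higher and 0.355% lower in males), with 6 members at an unadjusted p under 0.05 beside 15.4% of all genes. DESeq2 called 1 member higher in axotomized males, Tnfrsf13b (padj = 0.0766), beside 3.5% of all genes called higher. Without male axotomy 2, edgeR called 5 members higher in males, beside 8.81% of all genes. These were Tnfrsf13b (log2 ratio of males to females 1.04, padj = 0.0182), Ltbr (0.39, padj = 0.0451), Tnfrsf13c (1.45, padj = 0.0541), Cd27 (1.92, padj = 0.0852) and Tnfsf13 (0.48, padj = 0.0846). The axotomy against sham comparison in males then had 13 members higher and 1 lower, beside 25.2% of all genes higher and 22.8% lower. Cd27, Fasl, Ltb and Tnfsf13 were added, and Lta and Tnfsf13b were lost. Cd27 and Fasl did not pass the filter on low counts when the female libraries were fitted alone. They were tested here partly through the male libraries, so their calls are given no weight.

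Genes around the family were read from lists of signaling partners. Of 36 adaptor and kinase genes of TNF receptor signaling, 5 rose and 4 fell in females, and 6 rose and 6 fell in males. These are 25% and 33.3% of the list, beside 20.1% and 41.9% of all genes. Casp8, the initiator caspase gene, rose with log2 fold changes of 0.66 (SE 0.21) in females and 0.85 (SE 0.21) in males. Traf4 (0.70 and 0.49) also rose in both sexes, while Map3k5, the gene of the stress kinase ASK1 (−0.53 and −0.64), and the inhibitory adaptor gene Traf3 (−0.31 and −0.61) fell. Tab3, which links TAK1 to its upstream signals, fell as well (−0.41 and −0.74). The median over the list was 0.02 in females and 0.05 in males. The female rises on this list, those of Casp8 and Traf4 among them, were not kept in every fit that left out 1 library.

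Of 11 genes of NF-kB subunits and inhibitors, 3 rose and 0 fell in females and 5 rose and 1 fell in males, which is 27.3% and 54.5% of the list beside 20.1% and 41.9% of all genes. Rela, the p65 subunit, rose by 0.36 (SE 0.08) and 0.35 (SE 0.08) on the log2 scale, Nfkbiz by 0.73 (SE 0.22) and 0.76 (SE 0.22), and Bcl3 by 0.51 (SE 0.16) and 0.89 (SE 0.17). The list for the shedding of TNF and its receptors held 7 genes (Adam10, Adam17, Rhbdf1, Rhbdf2, Timp3, Sppl2a and Sppl2b). Not all of them are proteases, and Timp3 encodes an inhibitor, so the counts do not give a direction of shedding. Of the 7, 1 fell in females, and 4 rose and 1 fell in males, beside the same shares of all genes. The protease gene Sppl2b fell in both sexes (−0.41 and −0.38), and Adam17, the TNF convertase, rose in males (0.26, SE 0.10, padj = 0.0778). Of 6 family genes that the symbol rule leaves out, 4 were tested, of which 0 rose and 3 fell in females and 1 rose and 3 fell in males, beside those shares of all genes. Ngfr, Relt and Eda fell in both sexes, and Eda2r, a receptor of an ectodysplasin isoform, rose in males (1.21, SE 0.36, padj = 0.0249) with a log2 fold change of −0.07 in females (SE 0.36, padj = 0.928). The male call of Eda2r was not kept in every fit that left out 1 library. The sex difference was called by edgeR for 0 of these 4 genes, beside 0.0192% of all genes. Ngfr, the p75 neurotrophin receptor, stood far above most members at 299 ± 20.1 TPM in sham, and its log2 fold change was −0.30 for females (SE 0.10, padj = 0.0644) and −0.63 for males (SE 0.10, padj = 0.00153). None of the female calls named in this paragraph was kept in every fit that left out 1 library. In some of these fits fewer of all genes were called in females too.

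The last list held genes known to be induced by TNF through NF-kB. Of 27 tested, 6 rose and 0 fell in females, beside 10.4% of all genes called higher, and 20 rose and 0 fell in males, beside 21.8%. The median log2 fold change was 0.43 in females and 1.48 in males. Called higher in both sexes were Tnfaip6, an inflammation-induced hyaluronan-binding protein gene (1.07 and 1.94), Tnip2 (0.84 and 0.95), the chemokine gene Ccl2 (1.07 and 2.33), Il6 (1.91 and 3.45), Ier3 (0.52 and 0.39) and the macrophage growth factor gene Csf1 (1.66 and 1.48). With 1 sham library of a sex left out, fewer of these genes were called higher in that sex, and fewer of all genes were called as well. These genes answer to many signals other than TNF, and macrophage markers moved in the same direction, as given above. All 5 myelinating Schwann cell markers also rose in males, from 4769 to 5315 CPM in sham to 6780 to 9338 CPM after axotomy. In females 0 of these 5 were called, with sums of 5354 to 7460 CPM in sham and 4512 to 6647 CPM after axotomy. Of 5 mast cell markers, 4 rose and 1 fell in males, and 0 rose and 1 fell in females. Of 7 neutrophil and monocyte markers, 1 rose in each sex. Their part in the result was not tested.

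For these genes the sex difference was called for 0 of 27 by edgeR, beside 0.0192% of all genes, and for 2 by DESeq2, beside 2.57%. In edgeR 10 of 27 had an unadjusted p under 0.05, beside 11.4% of all genes. Without male axotomy 2, 8 of 27 were called with a larger response in males, beside 5.71% of all genes. In sham the median log2 ratio of males to females over the list was −0.33. There edgeR called 0 of 27, beside 0.0432% of all genes, and 2 had an unadjusted p under 0.05, beside 3.22%. After axotomy the median ratio was 0.28, with 0 called by edgeR, beside 1.52% of all genes, and 2 by DESeq2, beside 5.8%. In edgeR 6 then had an unadjusted p under 0.05, beside 15.4% of all genes.

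**Figure D4:**
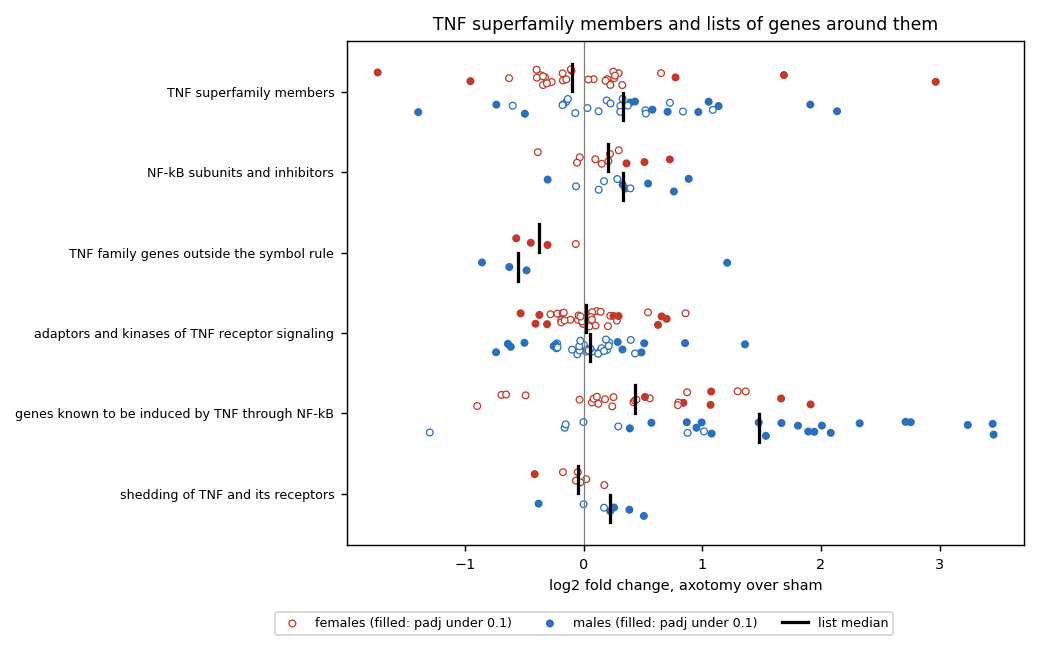
Log2 fold change of axotomy over sham for each tested gene of the family and of 5 lists of genes around it, in females (red) and males (blue), with filled points at padj under 0.1 and a black bar at the list median. The median of the TNF-induced genes lies at 0.43 in females and 1.48 in males, and that of the family at −0.10 and 0.33.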

How the data were processed

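Poly-A, stranded libraries were sequenced as paired reads. The authors trimmed reads with Trimmomatic 0.39 and assigned them to Gencode M27 (GRCm39) transcripts with Salmon 1.3.0. The deposited values used are its estimated counts, which are not normalized, its effective lengths and its TPM values, which the authors' Salmon run scaled for transcript length and to a common total in each library. Its strand setting: not given in the sources used here.

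Gene sums of the estimated counts were rounded and tested with the quasi-likelihood method of edgeR 4.0.16 (R 4.3.3), fitting the 4 group means to all 10 libraries at once. The filterByExpr filter (minimum count 10) kept 20836 genes. TMM normalization and the average effective transcript length entered as an offset, which the CPM values share. The common biological coefficient of variation was 0.129. Genes were called at padj under 0.1, the threshold of the study, and standard errors were taken from F. The study's own DESeq2 model with RUVseq and removeBatchEffect was not repeated, since its settings could not be taken from those sources. TPM served for levels between genes.

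The fit was tested on simulated data drawn with the same spread for every gene and group, without length differences and with changes in female axotomy only. That test could not check unequal spread between groups or the length offset. Replicate libraries differed by more than sampling noise (chi-square over degrees of freedom 7.33 to 109), and libraries of 55258476 to 90111671 counts put 3 counts at 0.0333 to 0.0543 CPM, counting error only. Alternatives were DESeq2 1.42.0, its size factors, no filter, a filter of 10 counts in all, no length offset, the compared libraries alone, a replicate block and leaving out each library.

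The members and all lists were chosen with earlier results of these data known. Named with their libraries were members called in any comparison, 12 members fixed by name and the 3 highest ligands and receptors in sham. From each list, at most 6 genes called the same way in both sexes were named, and Adam17 was named after its values were seen. From 2 of the lists, 1 gene each is not reported here and was left out of the counts and sums.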

Additional observations from a re-analysis of the deposited data

Results flagged for a closer look

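Tnfrsf18, the gene of the costimulatory receptor GITR of T cells, was picked out because its female axotomy libraries all lay below female sham and its male axotomy libraries all lay above male sham. It stood at 0.0667 and 0.0746 CPM in female sham and 0.0598, 0.0167 and 0.0511 CPM in female axotomy, and at 0.0818 and 0.0306 CPM in male sham and 0.302, 0.102 and 0.118 CPM in male axotomy. It had 61 counts over all libraries, 1 to 18 in each, and was not tested in the comparisons given above. Without the filter on low counts, the male minus female log2 fold change was 2.26 (SE 1.12, edgeR padj = 0.635), so the difference was not called. No group held 4 or more libraries, so no library was tested as standing apart from its group.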

How the results depend on the processing

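Calls of Tnfrsf12a and Tnfrsf8 in both sexes, and in males of Tnfrsf1b, Tnfsfm13, Tnfrsf10b, Tnfrsf11a and Tnfrsf1a, were kept in all 10 fits that left out 1 library. With 1 library left out, the number of members called was 2 to 8 in females (5 with all libraries) and 7 to 14 in males (12), 0 to 2 for the sex difference (0), 0 to 5 between axotomized males and females (0), and 0 throughout in sham. Over the same fits, 3.98% to 27% of all genes were called in females and 22.8% to 48.0% in males. The lone sham library left in such a fit is assumed to vary like the other groups. DESeq2 called 1 member between axotomized sexes. Whether replicate numbers pair libraries was not settled. Over 13 same-numbered pairs the residual correlation was −0.12 to 0.27, and 4 were over 0.1. Of 10 libraries, 0 correlated best with their own number in every other group. The residuals of the 2 sham libraries of a sex mirror each other, so this check cannot exclude pairing. With a replicate block, 9 members were called in females (6 higher, 3 lower), beside 23.9% of all genes, and 12 in males, beside 41.8%.

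Over the 31 members tested, directions of axotomy against sham reversed only for uncalled values. With 1 library left out, such log2 fold changes in females spanned −0.56 to 0.0090 for Fasl, −0.40 to 0.17 for Lta, −0.18 to 0.23 for Tnfrsf11b, −0.56 to 0.15 for Tnfrsf14, −0.75 to 0.080 for Tnfrsf25, −0.39 to 0.099 for Tnfrsf4 and −0.66 to 0.040 for Tnfsf15. In males they spanned −0.65 to 0.32 for Tnfrsf13c, −0.088 to 0.15 for Tnfrsf21, −0.061 to 0.23 for Tnfrsf4, −0.34 to 0.030 for Tnfrsf19, −0.29 to 0.0077 for Tnfrsf22, −0.27 to 0.12 for Tnfrsf23 and −1.19 to 0.47 for Tnfsf15. A replicate block gave −0.28 for Tnfrsf11b in females and 0.059 for Tnfrsf23 in males, and no length offset gave 0.029 for Tnfrsf22 and 0.14 for Tnfrsf23 in males. Of the other single-gene values, 970 kept direction and side of the threshold, 20 gained a call and 35 lost one, the cause of which was not tested. Depth limits the 9 untested members, whose changes were not detectable here.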
